A study of Mus musculus with 40 samples.

Results

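Mitochondrial fatty acid oxidation was represented by 10 genes: Cpt1a, Cpt2, Slc25a20, Acadvl, Acadl, Acadm, Hadha, Hadhb, Hadh and Etfdh. The genes were chosen by their place in the pathway, with earlier results of these data known. They are 10 of the 21938 protein-coding genes in the GENCODE annotation of the mouse genome (release M21, build GRCm38, the assembly that mm10 names). Each gene was described by the binding sites (peaks) of the corepressors SMRT and NCoR and of the histone deacetylase HDAC3 whose centre lay inside the gene or within 50 kb of it. Hadha and Hadhb lie head to head and share most of their windows, so the 10 windows merged into 9 stretches that covered 1.2 Mb, or 0.0439% of the chromosomes. The stretches held 62 of the 35138 NCoR peaks, 26 of the 10654 SMRT peaks and 36 of the 14462 HDAC3 peaks, with a peak in overlapping windows counted once.

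The study mapped protein binding in mouse liver by chromatin immunoprecipitation followed by sequencing (ChIP-seq). The 3 peak lists used here came from livers of male C57BL/6 mice fed ad libitum whose genotype was Bcl6 fl/fl, meaning that both Bcl6 alleles carried loxP sites and, without a Cre, had not been deleted. Each list stood for 3 libraries, made from 3 animals, that were pooled when positions were set, and it gave the chromosome, start and end of each peak with no height, score or value per animal. Libraries from knockout and fasted livers, histone marks, PPARs and BCL6 were not analysed here. All groups used were fed controls, the sources used here did not give their age, and whole liver was assayed, so hepatocytes and other liver cells cannot be told apart. No result below therefore has an error between animals, no difference was tested, and the exact 95% binomial intervals given cover counting error only. The intervals treat peaks as independent, although several can lie at the same gene, and they do not stand in for a test.

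Mitochondrial beta-oxidation shortens fatty acids to acetyl-CoA, which the fasting liver turns into ketone bodies. Long chains enter the matrix as carnitine esters, and each cycle then runs through a dehydrogenation, a hydration, another dehydrogenation and a thiolytic cleavage, with electrons passed to the respiratory chain. Genes of the pathway are classical targets of PPARα, a nuclear receptor that binds as a heterodimer with RXR to direct repeats of a half-site spaced by 1 base (DR1), an element that HNF4α also binds. SMRT and NCoR are scaffolds that bring HDAC3 to nuclear receptors and to repressors such as BCL6, and HDAC3 removes acetyl groups from histones.

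The DNA under the peaks nearest to these genes is shown first, because several of the sites carried similar letters. Each line gives 100 bp from the central 200 bp of an NCoR peak, in the build GRCm38 and on its forward strand. In the opening pair the capitals mark a match to the DR1 consensus, which the Etfdh site carries on the reverse strand.
Etfdh chr3:79628297-79628396: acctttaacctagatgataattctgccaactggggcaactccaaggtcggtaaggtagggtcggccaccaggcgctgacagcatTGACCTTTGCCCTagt
Hadh chr3:131271328-131271427: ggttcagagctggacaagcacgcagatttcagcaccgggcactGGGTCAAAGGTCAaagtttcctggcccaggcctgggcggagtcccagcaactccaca

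In the next line the capitals mark a match to the HNF4 half-site (CAAAGGCCA, CAAAGGTCA, CAAAGTCCA or CAAAGTTCA, either strand, which can overlap a DR1).
Cpt1a chr19:3320228-3320327: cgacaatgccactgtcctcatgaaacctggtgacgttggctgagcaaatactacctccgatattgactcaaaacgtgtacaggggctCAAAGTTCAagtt

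The following 4 sequences are shown because they share a run of letters with the Etfdh site. The capitals mark the best match to AGGTCANAGGTCA, an ideal DR1, on the reverse strand, and the run (CCTTTNCCCTA) covers the last 10 bases of each match and the base after it.
Cpt1a chr19:3325462-3325561: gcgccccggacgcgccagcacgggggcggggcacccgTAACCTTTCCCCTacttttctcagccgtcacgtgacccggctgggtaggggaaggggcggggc
Cpt2 chr4:107922032-107922131: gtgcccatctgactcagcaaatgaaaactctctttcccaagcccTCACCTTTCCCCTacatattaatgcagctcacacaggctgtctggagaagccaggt
Acadvl chr11:70014977-70015076: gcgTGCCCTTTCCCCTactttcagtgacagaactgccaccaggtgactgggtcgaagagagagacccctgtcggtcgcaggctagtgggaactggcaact
Hadha chr5:30152148-30152247: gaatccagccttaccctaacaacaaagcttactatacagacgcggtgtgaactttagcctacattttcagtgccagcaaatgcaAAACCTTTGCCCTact

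The last 3 are shared sites where the best match to the ideal DR1, in capitals and again on the reverse strand, fitted 10 of its 12 half-site bases.
Acadm chr3:153944885-153944984: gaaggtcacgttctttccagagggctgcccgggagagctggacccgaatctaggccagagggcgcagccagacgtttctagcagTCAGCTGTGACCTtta
Hadhb chr5:30170411-30170510: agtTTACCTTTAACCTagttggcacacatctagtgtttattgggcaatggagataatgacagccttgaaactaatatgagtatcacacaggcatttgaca
Hadh chr3:131263948-131264047: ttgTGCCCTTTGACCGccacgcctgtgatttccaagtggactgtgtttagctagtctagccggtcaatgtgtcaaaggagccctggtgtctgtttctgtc

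Every one of the 10 genes had NCoR in reach. An NCoR peak lay in the gene or within 50 kb at 10 of 10 genes, against 72.3% of all protein-coding genes counted in the same way, and the number per gene ranged from 3 at Etfdh to 12 at Hadh, with a median of 6.0 against 2.0 for all protein-coding genes. Each of the 10 genes had more NCoR peaks than that median, as did the 48.5% of all protein-coding genes with 3 or more. Of all genes, 76.1% had fewer peaks than the median member. Among the 15868 genes with at least 1 NCoR peak in the window, the median was 4.0. The median number of SMRT peaks per gene was 3.0 against 0.0, and that of HDAC3 peaks was 3.5 against 1.0. The background holds every protein-coding gene and not the genes that liver expresses, and expression was not analysed here.

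**Figure D1:**
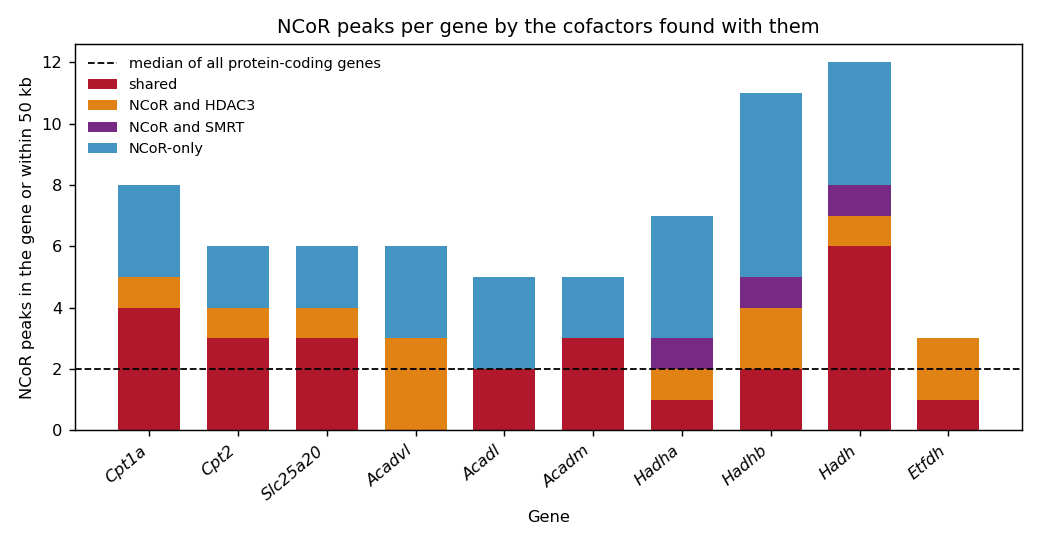
Number of NCoR peaks (vertical axis) inside each gene or within 50 kb of it, for the 10 genes (horizontal axis), with bar segments for the cofactors found within 200 bp and a dashed line at the median of all protein-coding genes. All bars rise above the line at 2.0, from 3 peaks at Etfdh to 12 at Hadh, and Acadvl has no shared peak. Of all protein-coding genes, 48.5% also had 3 or more peaks.

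Peaks were classed by partners, and peaks counted as together if 200 bp or less separated their centres. An NCoR peak with both SMRT and HDAC3 was called shared. Of the 62 NCoR peaks in the windows, 24 were shared (38.7%, 26.6 to 51.9), against 24.9% of all NCoR peaks. A shared peak lay in the window at 9 of the 10 genes, and Acadvl was the exception. The share was 39.2% of all protein-coding genes and 54.2% of the 15868 genes with an NCoR peak in the window. Another 25 NCoR peaks were NCoR-only, with neither partner (40.3%, 28.1 to 53.6), against 56.1% of all. The other classes were close to their share in the whole list, with 11 peaks joined by HDAC3 without SMRT (17.7%, against 14.8%) and 2 joined by SMRT without HDAC3 (3.23%, against 4.16%). All 26 SMRT peaks in the windows had an NCoR peak with them, and 24 of these also had HDAC3. Of the 36 HDAC3 peaks, the exception without NCoR lay 35944 bp from the nearest transcription start site (TSS), that of Myl1, in the window of Acadl.

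A window of 50 kb also reaches into neighbouring genes, so each peak was assigned to whichever protein-coding gene had the closest TSS. By this rule 28 of the 62 NCoR peaks and 14 of the 24 shared peaks belonged to the 10 genes, and the other 34 and 10 fell to 16 and 6 neighbours, respectively. The neighbour that took the most was Cyp2u1, a cytochrome P450 gene at Hadh, with 6 NCoR peaks, of which 3 were shared. At Cpt2, 0610037L13Rik took 3 NCoR peaks with 2 shared, and at Slc25a20 both peaks assigned to Prkar2a, which encodes a regulatory subunit of protein kinase A, were shared. Among the 28 assigned peaks, 14 were shared (50%, 30.6 to 69.4) and 8 were NCoR-only (28.6%, 13.2 to 48.7). Cpt1a and Hadh held 6 of the 28 each, and the intervals take no account of such grouping by gene. At least 1 shared peak was assigned to 8 of the 10 genes, against 20.9% of all protein-coding genes, with Acadvl and Hadha as the exceptions. Among the 15868 genes with an NCoR peak in the window the share was 27.9%. All 10 genes had an assigned NCoR peak of some class, against 49.1% of all protein-coding genes. Of the 10767 genes with such a peak, 4587 had a shared one.

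**Figure D2:**
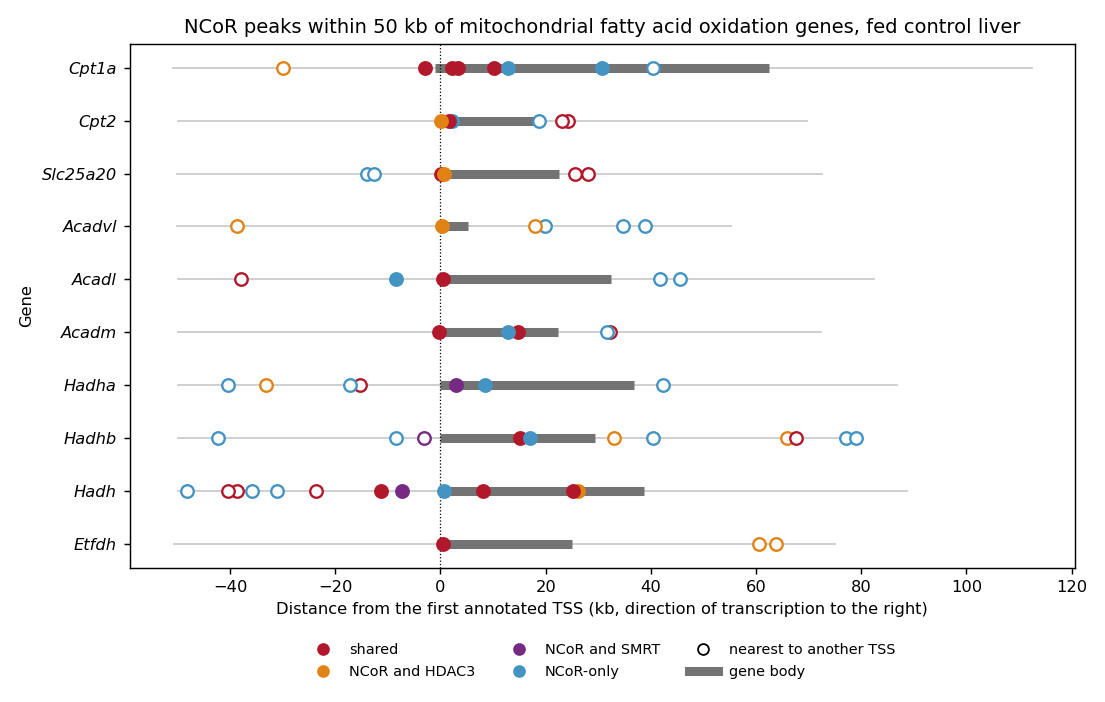
Position of each NCoR peak (points) along the windows of the 10 genes, in kb from the first annotated TSS and turned so that transcription runs to the right, with colours for the class and open points for peaks nearest to the TSS of another gene. Most filled points lie on or to the right of the dotted line at the TSS, and 34 of the 62 peaks were nearest to a gene outside the 10. A peak that lies in the windows of both Hadha and Hadhb is drawn in both rows, and is filled only in the row of the gene to which it was assigned.

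The genes that carry fatty acids into the matrix held 11 of the 28 assigned NCoR peaks and 6 of the 14 shared ones. Cpt1a encodes the liver form of carnitine palmitoyltransferase 1 on the outer membrane, the step that sets the rate of entry. Its 6 assigned NCoR peaks included 4 shared sites, and 5.07% of all protein-coding genes had at least as many shared peaks in the window. The shared site nearest to its TSS was in an intron at chr19:3325398-3325626, 2227 bp downstream, and had a GC content of 69.5%. It carries the Cpt1a sequence with the run CCTTTCCCCTAC shown above. Another shared site followed 3299 bp downstream (chr19:3326470-3326698), with a match to the BCL6/STAT consensus, and a further one lay 10138 bp downstream. The remaining shared site was 3007 bp upstream (chr19:3320164-3320392), between genes, and holds the HNF4 half-site shown above. No peak of the 3 lists lay within 1 kb of the Cpt1a TSS.

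Cpt2 encodes the carnitine palmitoyltransferase of the inner membrane, which turns the carnitine ester back into acyl-CoA. An NCoR peak with HDAC3 and without SMRT sat 40 bp downstream of a Cpt2 TSS, over the 5-prime UTR (chr4:107923406-107923634), and matched the ETS/ELK consensus (CCGGAAGT, either strand). The shared site of the gene was in an intron 1478 bp downstream (chr4:107921968-107922196), with the SMRT and HDAC3 centres 19 and 20 bp from the NCoR centre. An NCoR-only peak followed 2056 bp downstream. The promoter of Cpt2 and its intron thus differed in SMRT, which was called at the intronic site and not at the TSS.

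Slc25a20 encodes the carnitine-acylcarnitine translocase, which exchanges the ester for free carnitine across the inner membrane. A shared site covered its TSS, 68 bp downstream in the 5-prime UTR (chr9:108662052-108662280), with partner centres 19 bp (SMRT) and 15 bp (HDAC3) away. Its best match to the ideal DR1 was AGGTGAAAGGTCG, which fits 10 of the 12 half-site bases. A second NCoR peak, with HDAC3 and without SMRT, lay 654 bp downstream in an intron.

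The acyl-CoA dehydrogenases of the cycle's opening step held 6 assigned NCoR peaks, of which 3 were shared. Acadvl, Acadl and Acadm encode the enzymes for very long, long and medium chains, in that order. Each of these genes had an NCoR peak within 1 kb of its TSS, but the cofactors found with it differed. At Acadvl the peak was 336 bp downstream, in an intron (chr11:70014937-70015165), with an HDAC3 centre 94 bp away and no SMRT, and no SMRT peak was listed anywhere in the Acadvl window. At Acadl the peak was 470 bp downstream, in an intron (chr1:66862693-66862921), and shared, with SMRT at 5 bp and HDAC3 at 25 bp. At Acadm the peak was 256 bp upstream, in the promoter (chr3:153944774-153945002), and shared, with SMRT at 55 bp and HDAC3 at 59 bp. Acadm had another shared site 14789 bp downstream, in an intron, and an NCoR-only peak 12865 bp downstream.

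The genes of the later steps held 10 assigned NCoR peaks with 4 shared, and their sites lay farther from the TSS. Hadha and Hadhb encode the subunits of the trifunctional protein, which carries out the later steps for long chains, and their TSSs lie 86 bp apart on opposite strands. No peak of any list was assigned to either gene within 1 kb of this common start. On the Hadha side the nearest NCoR peak was 2999 bp into the gene (chr5:30152049-30152277), with a SMRT centre 5 bp away and no HDAC3. It was 1 of 2 peaks of that class among the 28. On the Hadhb side the shared site was 15189 bp downstream in an intron (chr5:30170347-30170575), and an NCoR-only peak lay 17015 bp downstream.

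Hadh encodes the 3-hydroxyacyl-CoA dehydrogenase for shorter chains and had the most peaks, 12 NCoR, 7 SMRT and 7 HDAC3, with 6 shared. At least as many shared peaks were found at 1.16% of all protein-coding genes. Its assigned shared sites lay 8069 bp downstream (chr3:131263918-131264146), 25268 bp downstream and 11342 bp upstream of the TSS. The peak nearest to the TSS was instead NCoR-only, 723 bp downstream in an intron (chr3:131271264-131271492). This NCoR-only site holds the DR1 shown above, GGGTCAAAGGTCA, in which 11 of the 12 half-site bases fit. A peak of another class, NCoR with SMRT and without HDAC3, lay 7366 bp upstream.

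Etfdh encodes the dehydrogenase that passes electrons from the acyl-CoA dehydrogenases to ubiquinone. It had the fewest peaks, 3 NCoR in the window and 1 assigned, and the assigned peak was shared. It lay 363 bp downstream of the nearer Etfdh TSS, in an intron (chr3:79628220-79628448), and also within the promoter of 4930579G24Rik, a gene that starts 216 bp from the other Etfdh TSS on the opposite strand. The SMRT centre was 100 bp from the NCoR centre and the HDAC3 centre 17 bp, and this was the largest SMRT distance among the 14 assigned shared sites.

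**Figure D3:**
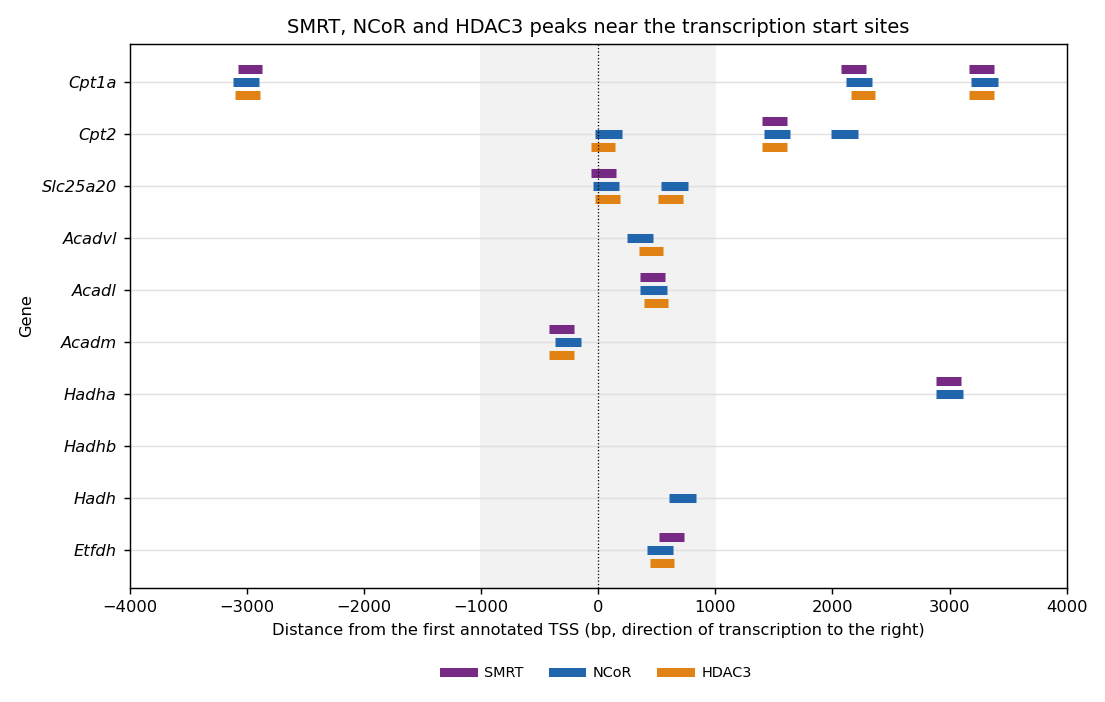
SMRT, NCoR and HDAC3 peaks assigned to each gene (bars, drawn at the length of the listed intervals) by distance in bp from its first annotated TSS, with the shaded band at 1 kb on either side. NCoR bars fall in the band at 7 of the 10 genes and not at Cpt1a, Hadha or Hadhb, and at 4 genes (Slc25a20, Acadl, Acadm and Etfdh) SMRT and HDAC3 bars lie with them.

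An NCoR peak lay in a promoter, defined as 1000 bp upstream to 100 bp downstream of a TSS, at 3 genes (Cpt2, Slc25a20 and Acadm), against 16.9% of all protein-coding genes, and a shared peak at 2 (Slc25a20 and Acadm), against 2.34%. With 1 kb counted on both sides of the TSS, NCoR was found at 7 of 10 genes, against 21.7% of all, and a shared peak at 4 of 10, against 3.17%. Of the 8 assigned NCoR peaks within 1 kb, 5 lay between 101 and 1000 bp downstream, against 28.3% of such peaks over all genes. The 8 included 4 shared peaks, 3 with HDAC3 and without SMRT, and 1 NCoR-only. Over all genes 686 of the 4897 NCoR peaks within 1 kb were shared, and the shares of the other classes there are not given. Over all distances 23 of the 28 assigned peaks were downstream of the TSS (82.1%, against 56.8% of all NCoR peaks), and the median distance was 5330 bp against 18200 bp. The side is partly set by the assignment. Hadha and Hadhb start 86 bp apart on opposite strands, and Etfdh and Acadvl start 216 and 1534 bp from an opposite-strand neighbour. At these genes most upstream peaks would fall to the other gene. Introns held 20 of the 28 (71.4%, against 48.4%), and 4 lay in a promoter, that of 4930579G24Rik at the Etfdh site included.

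Within shared sites the cofactors were placed as closely as elsewhere. At the 14 assigned shared sites the median distance from the NCoR centre was 19.0 bp to SMRT (range 4 to 100) and 24.0 bp to HDAC3 (range 14 to 87), against 23 and 21 bp at all 8739 shared peaks. The median GC content of the 8 peaks within 1 kb of a TSS was 59.0% (range 45.5 to 69.0), near the 61.0% of all NCoR peaks within 1 kb, and that of the other 20 peaks was 48.8%, against 47.0%.

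A full DR1 match was present in the central 200 bp at 2 of the 28 assigned peaks, Etfdh and Hadh (7.14%, 0.877 to 23.5), against 1.54% of all NCoR peaks, and at 1 of the 14 shared ones, against 1.61% of all shared peaks. The nuclear receptor half-site AGGTCA was found at 10 of 28 (35.7%) against 36.2%, so at this number the members' share was that of the list. The HNF4 half-site was found at 3 of 28 (10.7%) against 7.85%, and both DR1 sites are among these because the motifs overlap. The BCL6/STAT consensus (TTCCNAGAA, TTCCNGGAA, TTCTNAGAA or TTCTNGGAA) was found at 2 of 28 (7.14%, 0.877 to 23.5), against 3.85%, both at shared sites of Cpt1a and Hadh. The half-site CGTCA of CREB/ATF was present at 4 of 28 (14.3%) against 9.45%, all 4 shared. FOX (TGTTTAC), HNF6/CUX2 (TATCGATC, TATCGATT, TATTGATC or TATTGATT) and ETS/ELK were each found at 1 of 28, against 7.74%, 5.67% and 0.757%. At the 28 assigned peaks no match was found for ERR (TCAAGGTCA or TGAAGGTCA), C/EBP (TTACGCAA, TTATGCAA, TTGCGCAA or TTGTGCAA), NRF1 or CTCF, against 2.18%, 5.52%, 0.586% and 0.512% of all NCoR peaks. All motifs were read on both strands.

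A looser reading, chosen after the sequences had been seen, scored the best match to AGGTCANAGGTCA over its 12 half-site bases. At least 10 bases fitted at 6 of the 28 assigned peaks (21.4%), against 12.9% of all NCoR peaks and 3.18% of windows 2 kb to either side of them. Those 6 peaks belonged to 5 genes, Slc25a20, Acadm, Hadhb, Hadh and Etfdh, and 5 of them were shared.

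The longest run of letters that recurred at peaks of at least 3 of the 10 genes was 12 letters long, and CCTTTCCCCTAC was identical at Cpt1a (chr19:3325502-3325513), Cpt2 (chr4:107922079-107922090) and Acadvl (chr11:70014983-70014994). Over all NCoR peaks it was present in 17 (0.0484%), so 3 of the 17 belonged to these genes. With 1 letter fewer and 1 inner base left free, the stretch found at the most members was CCTTTNCCCTA, which lay at Cpt1a, Cpt2, Acadvl, Hadha and Etfdh, on the forward strand of the genome in each case. Read on the other strand this run is TAGGGNAAAGG, which covers most of a DR1 and the base before it. It occurred in 5 of the 28 assigned peaks (17.9%), in 126 of all NCoR peaks (0.359%) and in 0.0598% of windows 2 kb away. The best match to AGGTCANAGGTCA, which overlaps the run at each site, fitted 11 of the 12 half-site bases at Etfdh and 9 at the other 4 sites, and 9 was also the median of the 28 assigned peaks. The 5 sites lay 336 to 2999 bp downstream of a TSS, and their class varied, with shared sites at Cpt1a, Cpt2 and Etfdh, HDAC3 without SMRT at Acadvl and SMRT without HDAC3 at Hadha. The run was picked from these same sequences after they had been seen, so the members' share of it is what picked it and supports nothing, and the shares in all peaks and in flanking windows are given for scale.

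**Figure D4:**
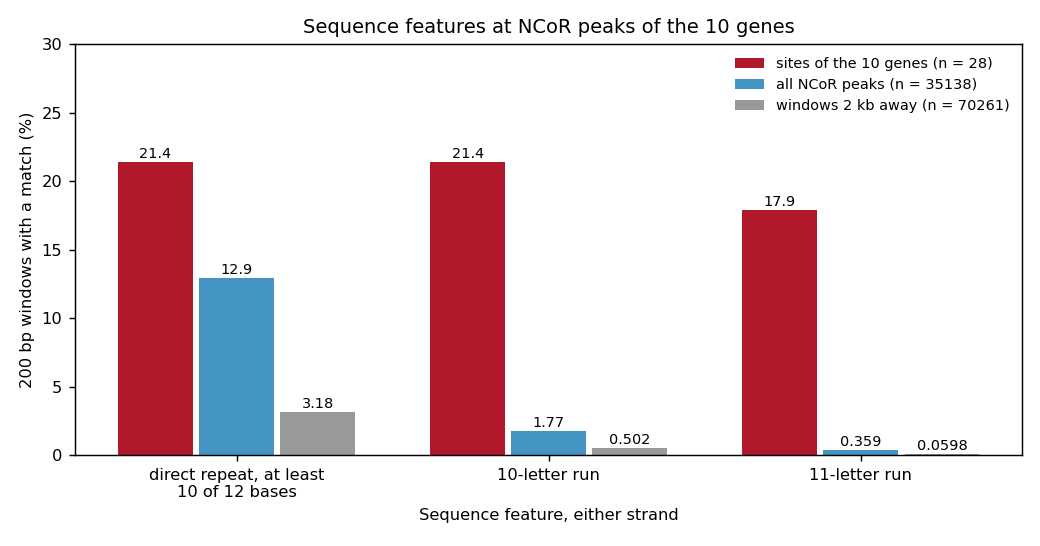
Share of 200 bp windows (vertical axis, %) that hold each sequence feature, for the 28 NCoR peaks assigned to the 10 genes, all NCoR peaks and windows 2 kb to either side of them. The features are a direct repeat with at least 10 of 12 half-site bases, the 10-letter run CCTTTNCCCT and the 11-letter run CCTTTNCCCTA. The bars of the 10 genes stand at 21.4%, 21.4% and 17.9%. The runs were picked for recurring at these same 28 peaks, and the repeat score was chosen after the sequences had been seen. The height of these bars therefore supports nothing, and the other bars are given for scale.

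Genes that were not used to pick the run give another view of it. An NCoR peak with CCTTTNCCCTA was assigned to 4 of 25 other genes of mitochondrial oxidation (Acaa2, Cpt1b, Eci1 and Etfb) and to 3 of 19 peroxisomal genes (Abcd3, Acaa1b and Crot), against 0.574% of all protein-coding genes and 1.17% of the 10767 genes with an assigned NCoR peak. A gene with more peaks has more chances to hold the run. The 25 genes held 89 assigned NCoR peaks and the 19 held 101, against 35138 over the 10767 genes, and the difference was not tested. Acaa2 encodes the thiolase of the mitochondrial cycle, and Etfb a subunit of the flavoprotein that hands electrons to the Etfdh product.

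The lists of related genes were counted in the same way to place the 10 genes in the wider pathway. Of the 25 other mitochondrial genes, 12 had an assigned shared peak (48%), 16 an NCoR peak within 1 kb of a TSS (64.0%) and 8 a shared peak there (32.0%). Among these, Acsl1, which encodes a long-chain acyl-CoA synthetase and also stands in the peroxisomal list, had 8 assigned shared peaks with 2 in promoters. Eci2, an enoyl-CoA isomerase gene, and Slc22a5, which encodes a carnitine importer, had 5 each, and Acaa2, Eci1, Eci2, Decr1, Crat and Mlycd each had a shared promoter peak. A promoter held an NCoR peak at 13 of the 25 other mitochondrial genes (52%) and a shared peak at 7 (28%). Of the 19 peroxisomal genes, 13 had an assigned shared peak (68.4%), 15 an NCoR peak within 1 kb (78.9%) and 6 a shared peak there (31.6%), with NCoR in a promoter at 13 (68.4%) and a shared peak in one at 4 (21.1%). Of the 8 ketone body genes, 5 had an assigned shared peak (62.5%) and 2 each an NCoR peak and a shared peak within 1 kb (25.0%), which are also their counts in promoters. The 10 described genes, at 80%, 70% and 40%, had the highest share for assigned shared peaks and for shared peaks within 1 kb, and the peroxisomal list had the highest for NCoR within 1 kb. In promoters the order differed, with a shared peak at 2 of the 10 genes (20%), the lowest share of the 4 lists, and NCoR at 3 (30%), below the other mitochondrial and the peroxisomal list. With 8 to 25 genes per list no order was tested. The order also depends on which genes were put in each list. The other mitochondrial list was drawn widely. Its genes with 0 assigned shared peaks were Acads, Acad8, Acad9, Acad10, Acad12, Echs1, Etfb, Cpt1b, Cpt1c, Hsd17b10, Mcee, Pccb and Acacb. In the ketone body list Bdh2, Oxct1 and Slc16a6 also had 0.

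**Figure D5:**
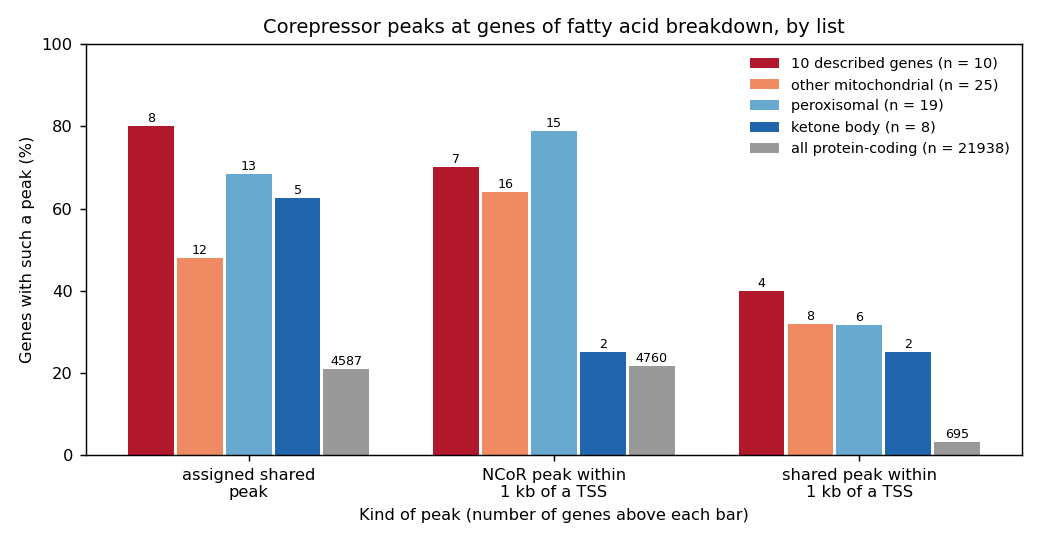
Share of genes (vertical axis, %) with an assigned shared peak, with an NCoR peak within 1 kb of a TSS and with a shared peak within 1 kb, for the 10 described genes, 3 lists of related genes and all protein-coding genes, with the number of genes above each bar. The lists of 8 to 25 genes stand above the grey bars of all genes for each kind of peak (20.9%, 21.7% and 3.17%), with the ketone body list close to them for NCoR within 1 kb (25.0%).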

How the data were processed

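Per the labels and the study's methods, the authors aligned 75 bp single-end reads to mm10 with Bowtie, kept uniquely mapped reads, called peaks with HOMER on the 3 pooled libraries of each cofactor against input, and kept those that passed their fold and false discovery thresholds in DESeq2. The deposited lists gave positions alone, with intervals of 212 bp (SMRT and HDAC3) or 228 bp (NCoR); no source used here gave the depth, so a shorter list cannot be told apart from fewer reads or a weaker antibody. No peak ran past a chromosome end of GRCm38.

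The 10 genes, the related lists and the motifs were chosen with earlier results of these data known. All 10 members were named, with their nearest shared sites, promoter sites and neighbours taking at least 2 shared sites. Of 26 other mitochondrial genes listed, 25 matched the annotation by symbol. Classes, nearest TSSs and motif searches were computed in Python 3.11.15 with pysam 0.24.0 and SciPy 1.17.1 (exact binomial intervals), and were checked against direct searches on simulated data. Sequences are from the RefSeq copy of GRCm38. Windows, partner distances, promoters, TSS sets and search widths were varied. The letters at sites of the ketone body list are not reported here.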

Additional observations from a re-analysis of the deposited data

How the results depend on the processing

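The 11 results were recomputed 40 times under the alternatives, and the counts that moved by over 1.5 times are given here. With a window of 10 kb the merged windows held 37 NCoR peaks, 22 HDAC3 peaks and 13 NCoR-only peaks, while shared peaks went from 24 to 17. With 1000 bp on either side of a TSS, an NCoR peak lay at 7 promoters and a shared peak at 4, against 21.7% and 3.17% of all protein-coding genes. With 5000 bp the counts were 10 and 6. No share of all genes is given at that width, so these counts cannot be read as particular to the members. The shared site with a DR1 match was lost (0) when 1 TSS was used per gene, because the Etfdh site then fell to another gene, and when the central 100 bp were searched; with at least 10 of 12 half-site bases, an alternative added after seeing the data, the count was 5. Set against the genes with an NCoR peak in the window, the share of genes that had fewer peaks than the median member went from 76.1% to 66.9%.

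When TSSs of all genes were used, shared peaks assigned to the 10 genes went from 14 to 11 and genes with one from 8 to 7, with Hadhb lost. No paired analysis was possible because the replicates are merged within a list. The planned stricter peak threshold was not run, since positions come without scores. Peak height, depth and the spread between animals could not be assessed, and presence in a list depends on the authors' threshold.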
